A study of Mus musculus with 4 samples.

Results

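The 36 genes described here are markers of cell division, chosen by symbol from a fixed list. All 36 were found among the 57132 genes of the count tables, and each had counts in all 4 libraries. By role, 22 are best known from G2 and mitosis, 10 from S phase, and 4 (Stmn1, Ccne1, Ccne2 and Ccnd1) were placed in neither group. The samples were kidneys of 4 wild-type mice after contrast-induced acute kidney injury (CIAKI), in which a radiographic contrast agent damages the kidney. Fresh tissue was dissociated and sequenced by droplet single-cell RNA-seq on the 10x Genomics platform. All 4 mice form 1 group and carry the same batch label. No uninjured kidneys are analysed here, so every comparison below is between kinds of cell inside injured kidneys, and none measures the effect of the injury. The sources name neither the contrast agent nor its dose, nor how long after it the kidneys were taken.

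A dividing cell copies its DNA in S phase and separates the copies in mitosis. Minichromosome maintenance (Mcm) proteins open the DNA, Pcna clamps the polymerase to it, and ribonucleotide reductase (Rrm1, Rrm2) and thymidylate synthase (Tyms) supply nucleotides. Cyclin B with Cdk1 then drives entry into mitosis, in which kinases (Aurka, Aurkb, Plk1), checkpoint proteins (Bub1, Bub1b) and kinesin motors build and control the spindle. The adult kidney epithelium divides rarely, and surviving tubule cells are known to re-enter the cycle after acute injury.

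The promoters of these genes carry short elements that time their transcription, and 4 are shown because they differ in which elements they hold. Top2a and Mki67 encode a topoisomerase that untangles chromosomes and the Ki-67 protein that coats them, Cdk1 the mitotic kinase, and Mcm6 a subunit of the replicative helicase. Each line gives the 250 bases before the start site from RefSeq on build GRCm38.p6, read 5′ to 3′ on the gene's own strand, which is the minus strand for all 4. Capitals mark matches on either strand to the cell cycle homology region (CHR: TTTGAA or TTCGAA), to CCAAT, which binds NF-Y, and to E2F sites (TTTGGCGC, TTTCCCGC, TTTGCCGC or TTTCGCGC). The windows are chr11:99024190-99024439 for Top2a, chr7:135716380-135716629 for Mki67, chr10:69352913-69353162 for Cdk1 and chr1:128359706-128359955 for Mcm6.
Top2a: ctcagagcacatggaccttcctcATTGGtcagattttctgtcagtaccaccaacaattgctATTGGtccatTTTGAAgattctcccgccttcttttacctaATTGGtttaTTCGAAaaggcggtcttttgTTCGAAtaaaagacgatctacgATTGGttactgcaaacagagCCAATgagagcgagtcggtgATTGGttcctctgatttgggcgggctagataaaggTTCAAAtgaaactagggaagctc
Mki67: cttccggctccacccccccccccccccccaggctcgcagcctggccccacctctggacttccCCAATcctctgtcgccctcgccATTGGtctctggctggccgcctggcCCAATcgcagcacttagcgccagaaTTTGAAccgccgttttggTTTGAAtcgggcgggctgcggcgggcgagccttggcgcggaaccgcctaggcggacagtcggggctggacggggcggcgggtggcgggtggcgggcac
Cdk1: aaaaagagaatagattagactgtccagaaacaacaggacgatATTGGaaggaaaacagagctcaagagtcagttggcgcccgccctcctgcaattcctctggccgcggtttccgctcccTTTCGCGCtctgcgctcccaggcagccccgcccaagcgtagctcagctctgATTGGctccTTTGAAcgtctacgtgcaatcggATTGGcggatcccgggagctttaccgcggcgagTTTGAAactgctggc
Mcm6: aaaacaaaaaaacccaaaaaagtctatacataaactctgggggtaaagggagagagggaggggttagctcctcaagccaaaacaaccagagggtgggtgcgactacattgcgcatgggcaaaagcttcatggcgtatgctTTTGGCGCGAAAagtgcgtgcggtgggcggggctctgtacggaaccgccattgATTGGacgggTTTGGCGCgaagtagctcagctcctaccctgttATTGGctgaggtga
Top2a held 4 CHR and 6 CCAAT matches, Mki67 2 and 3, and Cdk1 2 and 3 with 1 E2F match. Mcm6 held no CHR match, 2 CCAAT matches and 3 E2F matches, of which a pair overlap. The promoter table held 29 of the 36 genes. Among them, CCAAT occurred in 16 of 19 G2 and mitosis genes (84.2%) and 8 of 9 S phase genes (88.9%), where 34.5% of all 27025 promoters of the table had it. A CHR occurred in 7 of 19 G2 and mitosis genes (36.8%) and 1 of 9 S phase genes, against 17.4% of all promoters. The E2F letters occurred in 1 of 19 and 2 of 9, against 1.91%. A match describes the letters only and is not a measured binding site.

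The libraries held 8790, 9368, 17312 and 12743 barcodes with 66762741, 64757026, 105436725 and 36831995 unique molecular identifiers (UMIs) in mice 1 to 4. After filtering, 40830 cells remained, at a median of 5549, 5780, 5655 and 2077 UMIs per cell. Mouse 4 stands apart: it shared 1 barcode with the other libraries, where mice 1 to 3 shared 23 to 54 in each pair, and a median of 13.7% of its UMIs per cell were ribosomal protein genes, against 1.48% to 2.35%. Several classes lie in clusters that come almost wholly from 1 library, so mouse and cluster cannot be told apart there, and values are given per mouse. Total counts per gene differed between all pairs of libraries far beyond sampling noise. Their origin in separate animals is known from the labels alone.

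A cell was counted as carrying the division programme when 3 or more of the 36 genes had a UMI after it had been thinned at random to 1000 UMIs. Thinning is needed because the chance of detecting a gene grows with depth. Of 37421 cells with 1000 UMIs or more, 399 (1.07%) met this rule, 28915 had none of the genes, 7187 had 1 and 920 had 2. Just inside the threshold were 126 cells with exactly 3 genes, and 232 cells had 5 or more, up to 17. With all UMIs, 6315 of 40830 cells (15.5%) met it, and the order of the classes changed. The intercalated-like and capsule epithelium-like classes, at 38.5% ± 21.3 and 45.9% ± 16.7 with all UMIs (SD, n = 4 mice), had no such cell after thinning to 1000 UMIs, and 2.08% ± 1.78 and 1.40% ± 1.02 after thinning to 2000. Of the 399 cells, 89.5% held a G2 or mitosis gene, 67.2% an S phase gene and 56.6% both. They had a median of 11135 UMIs before thinning against 4721 in the other cells, and a median doublet score of 0.0592 against 0.0274. With the highest doublet scores left out, the mean share was 2.25% in T lymphocyte-like and 1.53% in macrophage- and monocyte-like cells, against 2.37% and 2.53% with them. The macrophage class of that setting also took in a cluster that is unnamed in the main clustering, so its shares are not of the same cells. After thinning to 2000 UMIs, the T lymphocyte-like and the macrophage- and monocyte-like shares were 5.86% and 5.32%.

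Immune cells made up most of the 399. Lymphocyte, dendritic and macrophage classes had the highest mean shares, and the mean of each tubule and vessel class was below 1%. Among T lymphocyte-like cells, 8 of 249 (3.21%), 7 of 336 (2.08%), 15 of 550 (2.73%) and 46 of 3148 (1.46%) met the rule in mice 1 to 4, a mean of 2.37% ± 0.763 (SD, n = 4). All 4 mice lie close together, and leaving out any 1 moved the mean between 2.09% and 2.67%. In mouse 4, 41 of these cells lay in a cluster led by Cd8b1, which encodes a chain of the CD8 co-receptor. The share there was 2.17%, and the cluster did not pass for Cd8a. At clustering resolution 2, a Cd8b1-led cluster held 987 cells of mouse 4. Another, led by Trbc2 with Ctla4 and Cd40lg among its leading genes, held 1154. Which of these held the 41 cells was not measured. In the main clustering, a second T lymphocyte-like cluster of mouse 4, led by the NK receptor genes Klrc1 and Klrb1c, had 0.405%. For reference, neutrophil-like cells, known as non-dividing when mature, had 1 of 2175 (0.0460%), 5 of 3486 (0.143%), 9 of 763 (1.18%) and 0 of 189, which allows up to 1.59%. All 9 cells of mouse 3 lay in a cluster led by the granule genes Camp, Ngp and Ltf. It held 787 of the 800 neutrophil-like cells of that mouse, and whether they were mature was not tested. The median depth of neutrophil-like cells before thinning was 4712, 5003, 5830 and 1754 UMIs, against 4098, 4880, 4336 and 1696 in T lymphocyte-like cells. T lymphocyte-like shares were above neutrophil-like shares in mice 1 to 3, and in mouse 3 their exact 95% intervals overlap (1.53% to 4.46% and 0.541% to 2.23%). In mouse 4 the limit of a count of 0 lies above the T lymphocyte-like share, so no difference could be read at this depth.

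Macrophage- and monocyte-like cells depended on the mouse. The counts were 6 of 592 (1.01%), 6 of 1210 (0.496%), 99 of 1307 (7.57%) and 21 of 2058 (1.02%), a mean of 2.53% ± 3.37 (SD, n = 4). Mouse 3 lay far above the others, and without it the mean was 0.843%. Without Ccnd1 and Stmn1 among the genes the shares of mice 1 to 4 were 0.169%, 0.413%, 6.96% and 0.777%. The cells of mouse 3 formed a cluster of their own, led by Saa3 and Ly6c2, the latter a marker of inflammatory monocytes, while those of mice 1 and 2 fell mostly in a cluster led by the mannose receptor gene Mrc1. They were also the deepest, at a median of 13074 UMIs per cell against 2426 to 7272. Of the 99 cells, 93 held a G2 or mitosis gene and 66 an S phase gene. Their median doublet score was 0.0562, against 0.0172 in the other macrophage- and monocyte-like cells of mouse 3. The mean over mice was 1.53% ± 1.64 with the highest doublet scores left out. In that setting the class also took in a cluster led by Il27, with 1466 cells of mouse 3, which is unnamed in the main clustering. The part of the doublet scores and that of the added cluster in this mean cannot be told apart.

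B lymphocyte- and plasma-like cells had the highest share of any class, in 1 mouse. In mouse 3, 56 of 377 (14.9%, exact binomial 95% interval 11.4% to 18.9%) met the rule, and 2 of 200 (1.00%) did in mouse 4. Mice 1 and 2 had 12 and 18 such cells at this depth, with 0 and 1 meeting it. In mouse 3, Mki67 was found in 45 of these cells, Top2a in 41 and both in 31. The 56 cells that met the rule had a median doublet score of 0.0592, against 0.0172 in the other cells of the class in mouse 3. Among the 59 cells of the class that met the rule, 57.6% also had a UMI of a T lymphocyte marker, against 16.6% of its other cells, and its own markers were present in all 59. Markers of the capsule epithelium were found in 32.2% against 7.85%. Macrophage and monocyte markers (5.08% against 17.9%) and dendritic markers (6.78% against 26.8%) went the other way. The part of these markers in the share was not tested. Dendritic-like cells led by the migration receptor gene Ccr7 were nearly all from mouse 3, where 25 of 386 (6.48%, 95% interval 4.23% to 9.41%) met the rule, 19 of them with a G2 or mitosis gene. Of the 25, 32.0% had a UMI of a dendritic marker, against 72.4% of the other cells of the class, and 24.0% against 4.56% had a B lymphocyte marker. At clustering resolution 2, a Ccr7-led cluster held 322 cells of mouse 3. Another dendritic-like cluster, led by Siglech and with the B lymphocyte markers Cd79b and Ighm, held 115. Where the 25 cells fell was not measured. NK-like cells of mouse 3 had 3 of 254 (1.18%). These intervals cover counting error only.

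**Figure D1:**
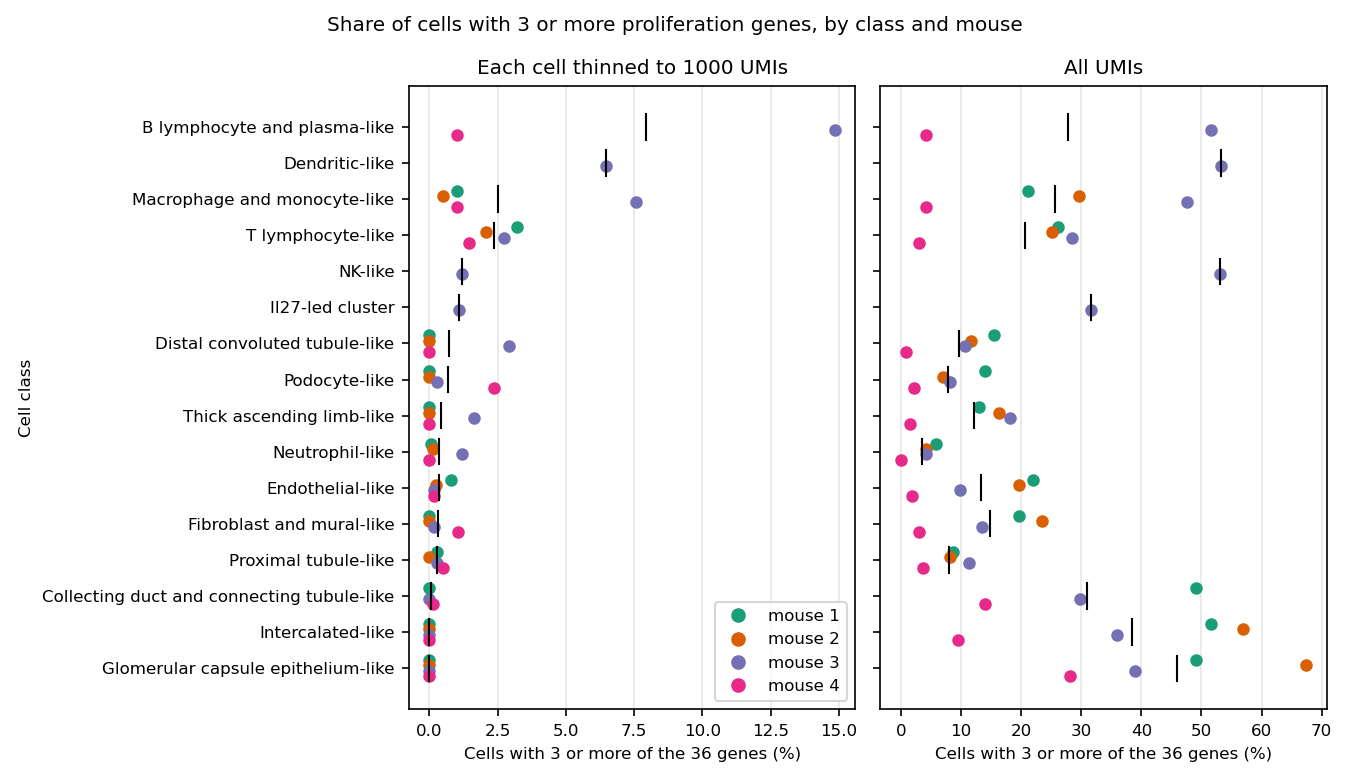
Share of cells with 3 or more of the 36 genes (x axis, %) in each cell class (y axis), after thinning to 1000 UMIs (left) and with all UMIs (right). Points are mice with 20 or more such cells and the black line is their mean. After thinning, T lymphocyte-like cells lie between 1.46% and 3.21% in all 4 mice, mouse 3 stands apart in the macrophage class at 7.57%, and the intercalated-like and capsule epithelium-like classes are at 0.

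Tubule cells with the programme were few. Proximal tubule-like cells, the reabsorbing epithelium that is a main site of acute injury, had 1 of 354 (0.282%), 0 of 155 (allowing up to 1.94%), 2 of 695 (0.288%) and 5 of 1041 (0.480%), a mean of 0.263% ± 0.198 (SD, n = 4). Without Ccnd1 and Stmn1 among the genes the mean was 0.132%, and it was 0.0961% with 5 or more genes required, or with 3 or more G2 and mitosis genes. Only mouse 4 had proximal tubule-like cells with 3 or more G2 and mitosis genes, 4 in number. Thick ascending limb-like cells had 10 of 616 (1.62%) in mouse 3 and 0 of 730, 0 of 270 and 0 of 448 in mice 1, 2 and 4, which allow up to 0.411%, 1.11% and 0.670%. Those 10 cells went against their class in several ways. Markers of the thick ascending limb were found in 50% of them against 94.4% of the other cells of the class, T lymphocyte markers in 60% against 3.70%, endothelial markers in 70.0% against 11.4% and erythroid markers in 40% against 0.584%. Their median depth was 1696 UMIs against 5836 in the other cells of the class in mouse 3, and their median doublet score 0.0794 against 0.0242. With the highest doublet scores left out, the mean share of the class over mice was 0.181% in place of 0.406%. The part of the other markers in the share was not tested. Distal convoluted tubule-like cells had 2 of 69 in mouse 3 and 0 of 192, 0 of 107 and 0 of 197 in mice 1, 2 and 4, which allow up to 1.56%, 2.80% and 1.52%. In the class like collecting duct and connecting tubule, 1 of 702 cells of mouse 4 met the rule.

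Inside the proximal tubule-like class, a cluster with the injured tubule markers Havcr1, Krt20, Sox9, Sox4 and Krt8 held 558 of the 814 cells of mouse 3. In it, 0 of 30 cells of mouse 1 and 0 of 450 of mouse 3 met the rule. Each of these counts of 0 allows up to 3 cells, so absence cannot be read from them. A second cluster of the class, with Havcr1 and Sox4, had 1 of 207, 0 of 85, 2 of 245 and 1 of 346 in mice 1 to 4. There too, the 0 of mouse 2 allows up to 3 cells. Outside the proximal tubule-like class, the markers of injured tubule were met beside those of the proximal tubule in 1 cluster, named capsule epithelium-like. It had 0 of 52, 0 of 43, 0 of 165 and 0 of 78 cells, which allow up to 5.77%, 6.98%, 1.82% and 3.85%. Intercalated-like cells had 0 of 116, 0 of 62, 0 of 38 and 0 of 375, which allow up to 2.59%, 4.84%, 7.89% and 0.8%. Endothelial-like cells had 7 of 905 (0.773%), 4 of 1719 (0.233%), 5 of 3265 (0.153%) and 3 of 1698 (0.177%), with mouse 1 above the other 3. Without Ccnd1 and Stmn1 among the genes these shares were 0.221%, 0.116%, 0.0919% and 0.118%, and their mean was 0.137% in place of 0.334%. Fibroblast- and mural-like cells had 3 cells in all, and podocyte-like cells, which do not normally divide, had 2.

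**Figure D2:**
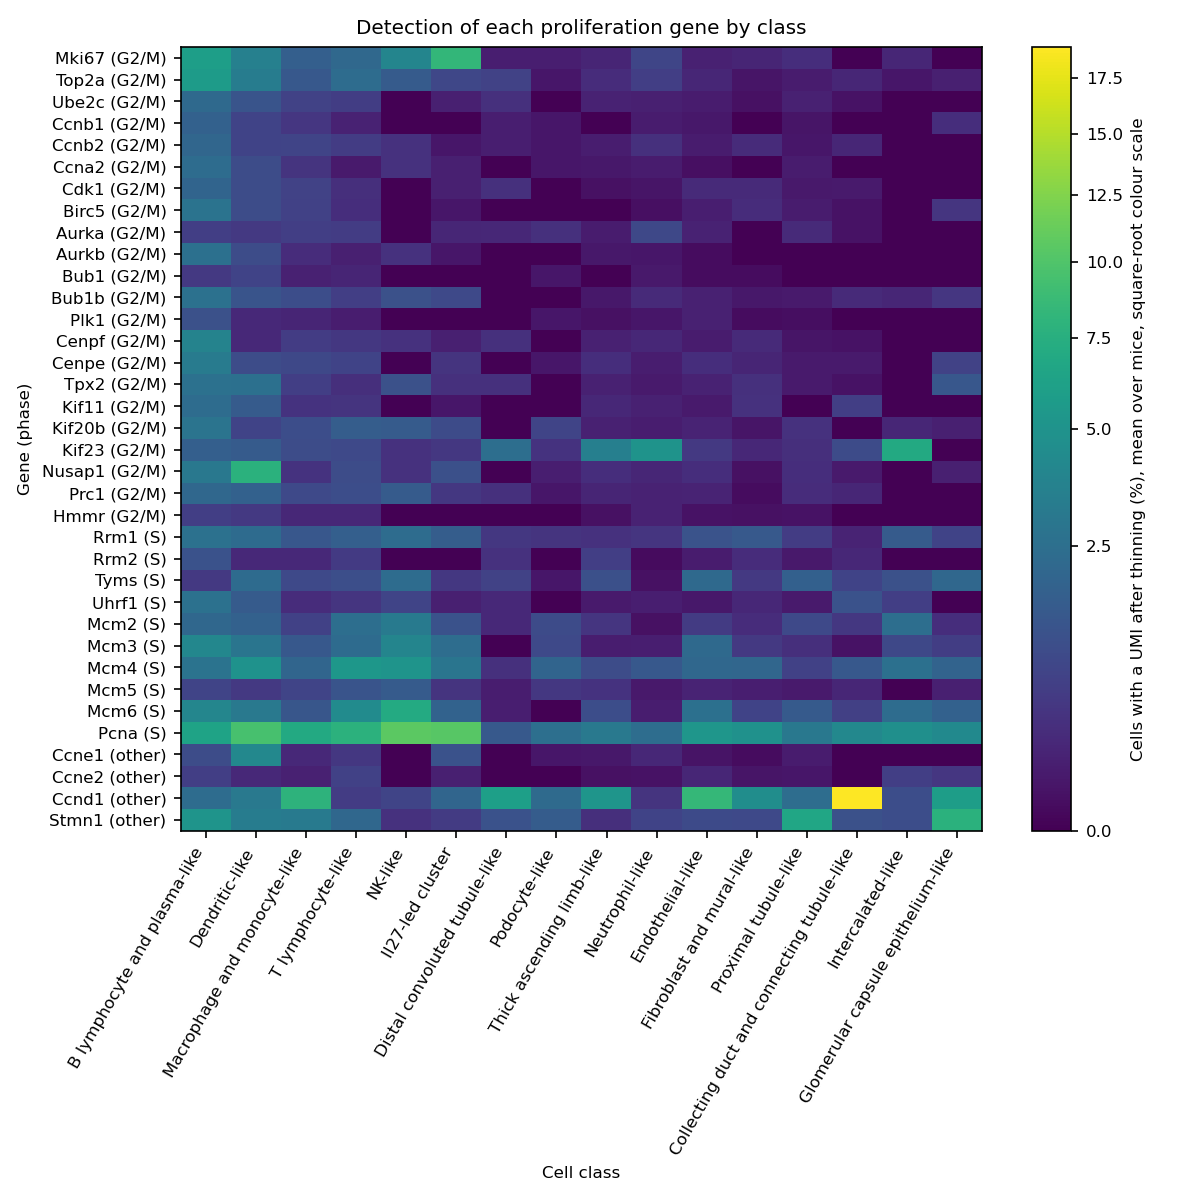
Share of cells with a UMI of each gene after thinning (colour, %, mean over mice with 20 or more cells, square-root scale), with genes in rows by phase and role and cell classes in columns. Most G2 and mitosis genes are brightest in the B lymphocyte-like column, whereas Pcna, Ccnd1, Stmn1 and Kif23 are bright in classes that had few or no cells meeting the rule.

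The genes differed in how far they were limited to the 399 cells. The cyclin genes Ccnb1 and Ccna2 were the most concentrated. Of the cells in which Ccnb1 was detected, 86.2% were among the 399, and the values were 84.8% for Ccna2, 84.3% for the kinetochore protein gene Cenpf, 80.5% for the survivin gene Birc5 and 78.8% for Ube2c, which marks cyclins for destruction. Ccnb2 stood at 69.8%, Cdk1 at 56.8%, Top2a at 53.5% and Mki67 at 37%. S phase genes were spread more widely, with 5.42% for Pcna, 6.36% for Mcm4 and 10.3% for Mcm6, and Rrm2 (46.6%) and Uhrf1 (42.0%) as the highest of them. Ccnd1, the G1 cyclin that responds to growth signals, was the least concentrated at 3.06%. Each of the genes also enters the rule, so these shares are a description.

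**Figure D3:**
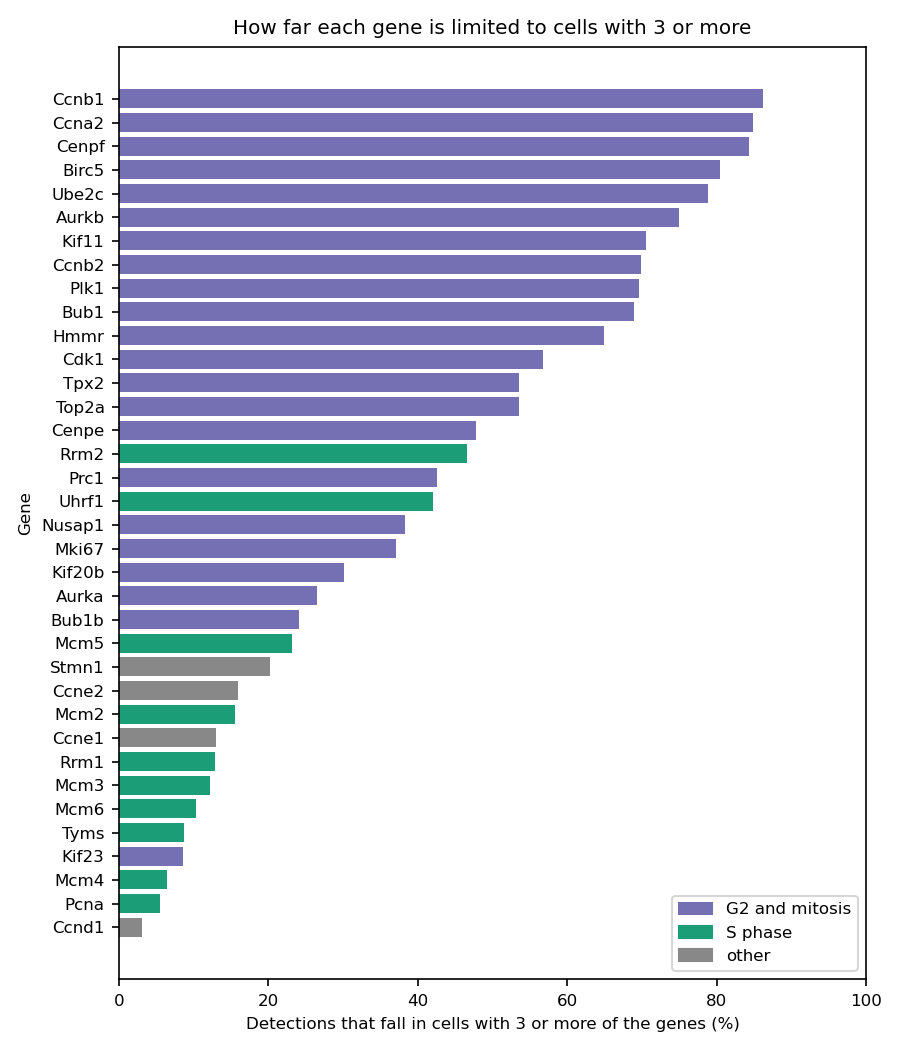
For each gene (y axis), the share of the cells with a UMI of it, after thinning, that fall among the 399 cells with 3 or more of the genes (x axis, %), coloured by phase. The bars run from 3.06% for Ccnd1 to 86.2% for Ccnb1, with the S phase genes Pcna, Mcm4 and Tyms near the low end.

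Kif23, a motor of the midbody that forms between daughter cells, was the exception among mitotic genes, at 8.59%. It was found in 7.86%, 5.05%, 2.75% and 4.23% of neutrophil-like cells and in 8.62%, 3.23%, 13.2% and 3.20% of intercalated-like cells of mice 1 to 4, and in 3.70%, 4.07%, 3.57% and 2.90% of thick ascending limb-like cells. Top2a, by contrast, reached 0.172% of neutrophil-like cells in mouse 2. Stmn1, which destabilises microtubules, was found in 5.65%, 4.52%, 1.87% and 14.5% of proximal tubule-like cells. Ccnd1 was found in 43.1%, 4.73% and 9.12% of collecting duct- and connecting tubule-like cells of mice 1, 3 and 4, and in 14.8%, 10.1%, 6.0% and 2.94% of endothelial-like cells. Nusap1, a spindle protein gene, was found in 7.77% of dendritic-like cells of mouse 3, and Ccne1, the cyclin of S phase entry, in 4.15%.

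Mki67 and Top2a, usually read together, were seldom found in the same cell in several classes. The most such cells lay in 1 cluster. This unnamed cluster led by the cytokine gene Il27, with markers of both macrophages and dendritic cells, came almost wholly from mouse 3. Mki67 was found in 117 of its 1398 cells (8.37%) and Top2a in 12 (0.858%), and no cell had both. Of the 117, 81 had none of the other 35 genes, and 7 had 2 or more of them. In macrophage- and monocyte-like cells of the same mouse, Mki67 was found in 62 cells, Top2a in 53 and both in 21, and 46 of the 62 (74.2%) had 2 or more of the other genes. Of the Il27-led cluster, 15 cells (1.07%) met the rule, 2 of them with 3 or more G2 and mitosis genes. The cluster's median depth was 6250 UMIs. Neutrophil-like cells of mouse 2 had 29 cells with Mki67, 6 with Top2a and 1 with both, and 21 of the 29 had no other of the genes. Endothelial-like cells of mouse 3 had 12, 5 and 1, fibroblast- and mural-like cells of mouse 3 had 10, 3 and 1, and macrophage- and monocyte-like cells of mouse 2 had 10, 7 and 1.

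**Figure D4:**
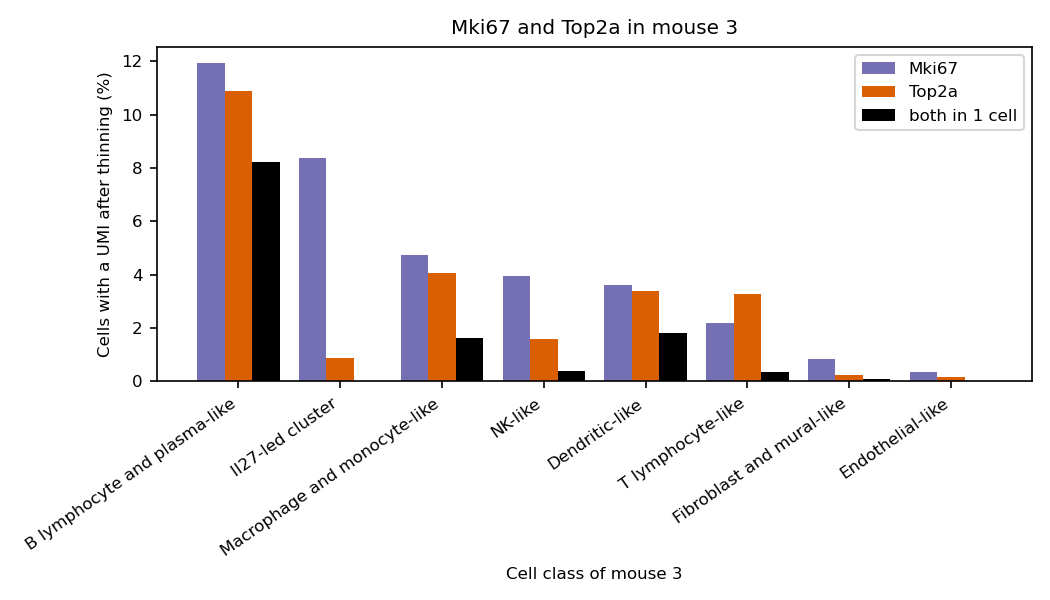
Share of cells (y axis, %) with a UMI of Mki67, of Top2a and of both after thinning, by cell class of mouse 3, for classes with 10 or more Mki67 cells. Both genes are near 11% to 12% in B lymphocyte-like cells, while the Il27-led cluster has 8.37% with Mki67, 0.858% with Top2a and no cell with both.

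Counts were then summed per mouse and class and compared across the 4 mice with edgeR's quasi-likelihood test, with the mouse as a block and Benjamini-Hochberg adjustment over all genes tested. Levels are given as CPM, the sum of a gene scaled to the total of its class and mouse. A summed level cannot tell more dividing cells from more RNA per cell. Macrophage- and monocyte-like against neutrophil-like cells gave the most calls. Of the 36 genes, 32 passed the filter on low counts, 15 were higher in macrophages and 1 lower, where 52% of all genes tested passed (28.7% higher, 23.4% lower). Their median log2 fold change was 1.11, and 0.08 over all genes. The replication genes led: Mcm5 (log2 fold change 3.23 ± 0.48 SE, adjusted p 0.00126, edgeR), Mcm3 (2.83 ± 0.39), Mcm6 (2.60 ± 0.38), Tyms (2.43 ± 0.49) and Mcm2 (2.28 ± 0.43) were each higher in 4 of 4 mice. Mcm3 stood at 12.8, 19.1, 57.0 and 8.41 CPM in macrophages and 1.00, 1.10, 7.70 and 0 CPM in neutrophils. Ccnd1 had the largest difference, at 132, 120, 58.5 and 84.5 CPM against 7.32, 3.84, 6.47 and 2.61 CPM, a log2 fold change of 3.46 ± 0.36 (adjusted p 0.000692, edgeR).

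Mitotic genes were less uniform. Cenpe, Ccnb1, Aurkb, Bub1b, Tpx2 and Kif20b were higher in macrophages, while Mki67 (log2 fold change 0.14 ± 0.33, adjusted p 0.738, edgeR), Top2a (0.36 ± 0.37) and Ube2c (0.45 ± 0.73) did not pass. Ccnb1 and Aurkb were the weakest calls: Ccnb1 was lost on leaving out any 1 of the mice (adjusted p 0.052 to 0.19, edgeR). Kif23 was lower, at 25.4, 6.74, 31.1 and 6.11 CPM against 90.1, 61.5, 29.2 and 44.3 CPM, and mouse 3 did not share this direction. Among the companion genes, 19 of 30 tested from the list of other replication genes were higher and none lower, and 7 of 27 other G2 and mitosis genes were higher and 2 lower. Cdkn2d, which encodes an inhibitor of Cdk4 and Cdk6, was lower in macrophages (log2 fold change -3.19 ± 0.40).

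T lymphocyte-like cells were compared with the same macrophage- and monocyte-like cells, so both comparisons share those sums. All 36 genes passed the filter, 3 were higher in T lymphocytes and 1 lower, where 35.3% of all genes passed (16.8% higher, 18.5% lower). The 3 were helicase genes: Mcm4 (log2 fold change 1.30 ± 0.21, adjusted p 0.00419, edgeR), Mcm6 (1.35 ± 0.25) and Mcm2 (1.34 ± 0.34), each higher in 4 of 4 mice. Mcm6 stood at 53.8, 49.97, 73.3 and 22.2 CPM against 11.1, 15.4, 35.5 and 8.10 CPM. Ccnd1 was lower by far, at 11.1, 4.44, 5.13 and 1.79 CPM against 132, 120, 58.5 and 84.5 CPM (log2 fold change -4.58 ± 0.40, adjusted p 0.000384, edgeR). Top2a was at 64.9, 63.9, 34.8 and 32.5 CPM against 6.95, 12.0, 101 and 12.7 CPM, higher in T lymphocytes of mice 1, 2 and 4 and lower in mouse 3. The number of calls depended on that mouse. Without mouse 3, 18 of 35 genes tested were higher in T lymphocytes and 1 lower, among them Rrm2 (log2 fold change 3.20, adjusted p 0.000823, edgeR), Birc5 (1.73, adjusted p 0.00411), Top2a (1.98, adjusted p 0.00502) and Cdk1 (1.15, adjusted p 0.0368). The share of all genes that passed without mouse 3 is not given, so these counts cannot be set against it. Of the companion genes, 10 of 29 other replication genes were higher in T lymphocytes over 4 mice, and Cdkn1a, the p21 inhibitor, was lower (-3.38 ± 0.48).

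**Figure D5:**
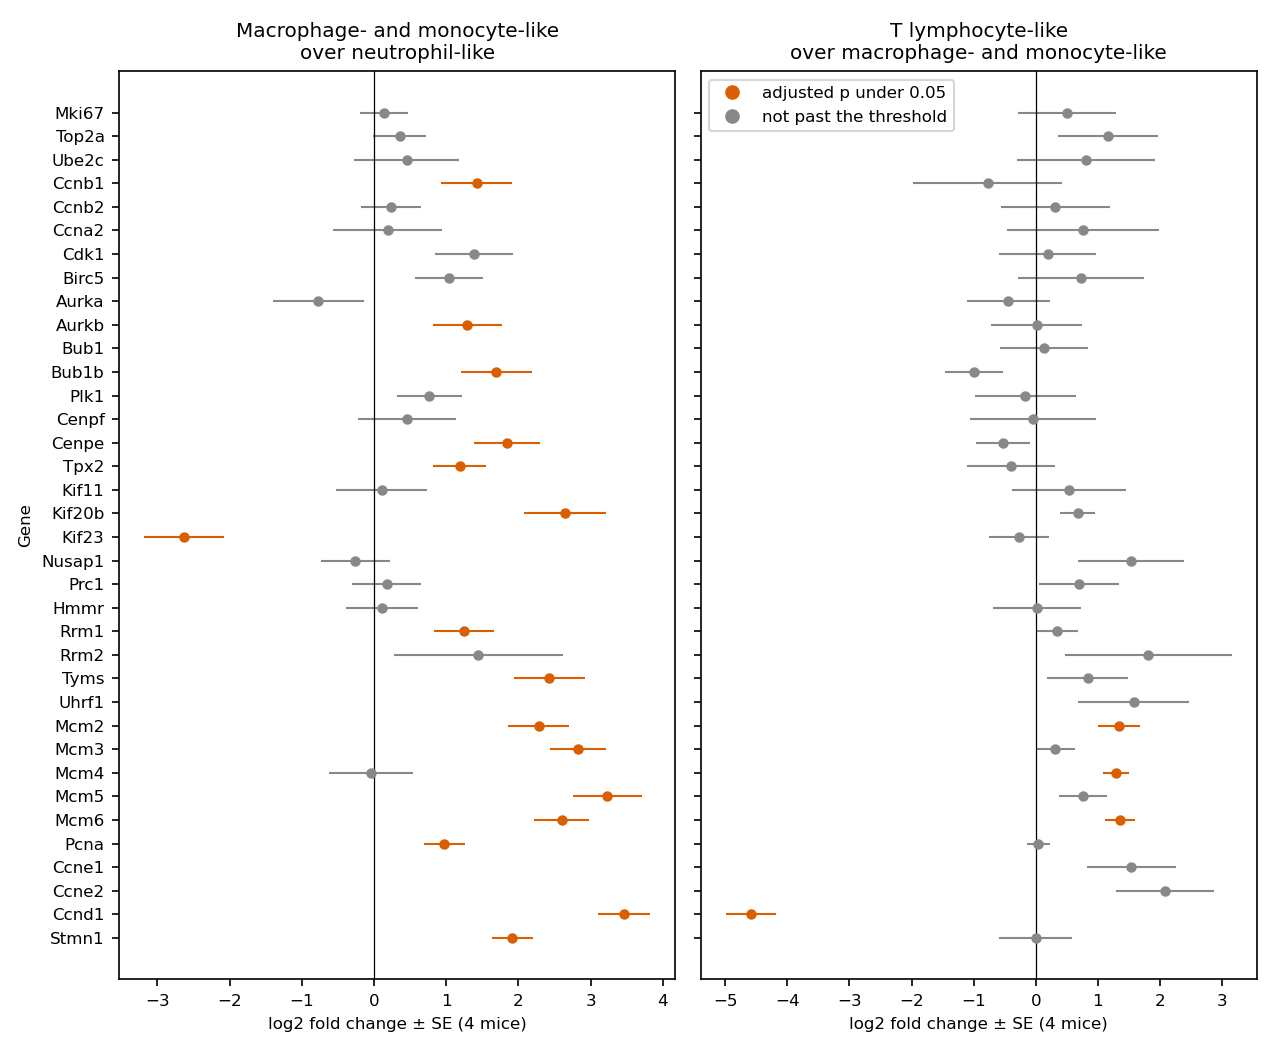
Log2 fold change with its standard error (x axis, edgeR, 4 mice) of each gene tested (y axis), for macrophage- and monocyte-like over neutrophil-like cells (left) and T lymphocyte-like over macrophage- and monocyte-like cells (right). Orange points passed the adjusted threshold. The Mcm genes other than Mcm4 lie to the right on the left panel, Ccnd1 changes side between the panels, and the error bars of the mitotic genes on the right cross or approach 0.

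In the tubule, proximal tubule-like were compared with thick ascending limb-like cells. Of the 36 genes only 11 passed the filter, 2 were higher in proximal tubule and 3 lower, where 37.6% of all genes tested passed (18.8% in each direction). Stmn1 was higher, at 47.4, 80.5, 28.6 and 192 CPM against 3.18, 6.08, 3.40 and 5.50 CPM (log2 fold change 3.73 ± 0.29, adjusted p 4.88e-06, edgeR). Kif23 was lower, at 7.77, 3.54, 2.93 and 2.28 CPM against 48.2, 49.8, 56.1 and 24.1 CPM (-3.63 ± 0.29, adjusted p 5.58e-06), and the groups do not overlap for either gene. Rrm2 (-2.68 ± 0.58) and Ccnd1 (-1.04 ± 0.23) were also lower, and Kif20b (1.51 ± 0.44) was higher in 4 of 4 mice but lost without mouse 1 (adjusted p 0.14, edgeR) or mouse 2 (0.075). Mki67 and Top2a did not reach the filter. Among the companion genes Myc (log2 fold change 3.44 ± 0.27) and Cdk6 (2.82 ± 0.23) were higher in proximal tubule, and Cdkn1a did not differ past the threshold (-0.07 ± 0.22, adjusted p 0.844, edgeR).

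The capsule epithelium-like cluster with injured tubule markers was compared with the same proximal tubule-like cells. These include the cluster with Havcr1 and Krt20, 558 of 814 cells in mouse 3, while the capsule epithelium-like cluster passed for neither gene. The comparison is therefore not one of injured with uninjured tubule cells. Of 8 genes that passed the filter, 1 was called, where 30.2% of all genes passed (14.8% higher, 15.4% lower). Ccnd1 was higher in the cluster, at 85.0, 169, 34.7 and 97.5 CPM against 53.2, 29.2, 26.1 and 21.7 CPM (log2 fold change 1.15 ± 0.33, adjusted p 0.0255, edgeR), and the call was lost without mouse 2 (adjusted p 0.11) or mouse 4 (0.10). Pcna (0.10 ± 0.19) and the Mcm genes tested did not pass. Cdkn2b, which encodes an inhibitor of the G1 kinases, was higher (4.88 ± 0.43). In endothelial-like against fibroblast- and mural-like cells, 3 of 21 genes were higher and none lower, where 30.6% of all genes passed (15.8% higher, 14.8% lower): Ccnd1 (1.37 ± 0.27, adjusted p 0.00759, edgeR), Cenpe (1.57 ± 0.36) and Mcm6 (0.90 ± 0.22). Ccnd1 stood at 190, 140, 94.6 and 41.5 CPM in endothelium against 72.5, 87.5, 22.4 and 24.6 CPM. Cenpe was lost without mouse 2 or mouse 3, and Mcm6 without mouse 1 or mouse 2. Cdkn1a (1.64 ± 0.42) and Cdkn1c (2.05 ± 0.29), both inhibitors of the cycle, were higher in endothelium.

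Cells that met the rule were last compared with the other cells of their own class, leaving the 36 genes out of the test because they chose the cells. The planned minimum of 10 such cells in 3 mice was reached in no class. With a minimum of 5, chosen after the counts were seen, macrophage- and monocyte-like cells (6, 6, 99 and 21 cells) and T lymphocyte-like cells (8, 7, 15 and 46 cells) could be tested. Thinned counts had been planned, but all UMIs were summed here. The chosen cells were deeper than the rest in every mouse of both classes. Medians were 29045 against 12973 UMIs in macrophages of mouse 3 and 6544 against 1749 in T lymphocytes of mouse 4. Over all genes, 8.02% passed in macrophages (2.87% higher, 5.15% lower) and 8.17% in T lymphocytes (4.71% higher, 3.46% lower). Division genes outside the 36 are known to be expressed in the same cells as the genes that chose them, and some, such as the mitotic kinase gene Pbk (53.4 against 0.164 CPM in macrophages), were near 0 in the other cells. Their levels are therefore a description. In macrophages Aspm, a spindle pole gene, averaged 155 CPM in the chosen cells and 0.749 CPM in the rest. In T lymphocytes Clspn, a replication checkpoint gene, averaged 180 against 4.45 CPM.

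Genes of other kinds also differed in these cells. In macrophages 5 of 8 quiescence genes were lower and none higher, among them Klf2 (431 against 1156 CPM, log2 fold change -1.95 ± 0.35) and Btg2 (723 against 1583 CPM, -1.53 ± 0.34). So were S100a9 (121 against 2111 CPM), Chil3 and the chemokine gene Cxcl2, known from inflammatory myeloid cells, with S100a8 and S100a9 also abundant in neutrophils. In T lymphocytes Il7r, the receptor of the survival cytokine IL-7, was lower (167 against 1042 CPM, -2.59 ± 0.30, adjusted p 2.10e-05, edgeR), as was Txnip (388 against 766 CPM), 1 of 2 quiescence genes called of the 8. In mouse 4, the chosen T lymphocytes were 41 of 1890 cells of the Cd8b1-led cluster. They were 5 of 1236 in the Klrc1-led cluster, which has Il7r among its leading genes. Kind of T lymphocyte and division cannot be told apart in this contrast. E2f8, Mybl2, Cdk2, Cdk4 and E2f2 are cell cycle genes like those that chose the cells, so their levels are a description too. The transcription factor genes E2f8 and Mybl2 were higher in both classes, Mybl2 in 3 of 4 mice in macrophages. Cdk2, Cdk4 and E2f2 were higher in T lymphocytes, and Ccnd3 was lower, and whether these differ from macrophages was not tested. Cdkn2c, an inhibitor of Cdk4 and Cdk6, was higher in both, and Cdkn1a passed in neither (adjusted p 0.372 and 0.911, edgeR). Without mouse 3, genes called in macrophages went from 881 to 367, and without mouse 4, genes called in T lymphocytes from 640 to 200.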

How the data were processed

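Per the file headers, the deposited counts are UMIs per gene and cell barcode, the output of Cell Ranger 9.0.1. Seurat 4.1.1 appears without a role in the submitters' processing notes. Build and annotation of the genome are not given in the sources used here. Barcodes were kept if they had at least 500 UMIs, at least 300 genes and under 50% mitochondrial UMIs. Scrublet (scanpy 1.11.5) marked 0, 107, 1 and 1 doublets in mice 1 to 4, so it did not work in mice 1, 3 and 4, and an alternative removed the highest scores. Cells were clustered without integration (2000 variable genes, 30 principal components, 15 neighbours, leidenalg 0.10.2, resolution 1). The 36 genes, related cell cycle genes, histone, mitochondrial and ribosomal genes were left out of clustering. A cluster was called "-like" a type when 3 or more listed markers each had UMIs in 20% of its cells and lay 2-fold above other cells; these limits were set after the clusters were seen. Clusters with markers of unrelated types stayed unnamed. Cells were thinned to 1000 UMIs at random, which left out 639, 661, 892 and 1217 shallower cells. Where a mouse with 20 or more cells has 0, the limit of 3 cells is given.

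Class comparisons used raw counts summed per mouse (20 cells or more), edgeR 4.0.16 (quasi-likelihood, TMM, filterByExpr) in R 4.3.3 and an adjusted threshold of 0.05, with DESeq2 1.42.0 as an alternative. The classes come from the same animals, so the mouse entered as a block. P-values measure the spread of the difference between classes over these 4 mice. On simulated counts of the tubule comparison (11929 genes), 60% of 100 genes changed by a log2 fold change of 1 and 95% of 100 changed by 2 were recovered, with 11 false of 166 calls. All 36 genes are named. From companion lists, named genes are up to 4 per list with the largest differences of 1 direction in every mouse, plus fixed regulators such as Cdkn1a (1 result is not reported here); in comparisons within a class, so are up to 6 other genes in each direction with 50 CPM or more. The 36 genes, the markers and the lists were chosen with earlier results of these data known.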

Additional observations from a re-analysis of the deposited data

Results flagged for a closer look

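Among the shares per mouse, 1 value lay far from the other 3 in 8 of 24 series of 4 mice. Chance sets apart about 1 in 20 such series where values are continuous, and a series with 0 in all mice but 1 is always set apart. After thinning, mouse 3 was the far value in macrophage- and monocyte-like cells (7.57%, next 1.02%), neutrophil-like cells (1.18%, next 0.143%), thick ascending limb-like cells (1.62%, next 0) and distal convoluted tubule-like cells (2.90%, next 0). The values for the last rest on 2 cells. Mouse 1 was the far value in endothelial-like cells (0.773%, next 0.233%). Mouse 4 was the far value in podocyte-like cells (2.38%, next 0.272%) and fibroblast- and mural-like cells (1.05%, next 0.166%), with 1 cell each. With all UMIs, mouse 4 lay far below the others in T lymphocyte-like cells (2.99%, next 25.1%), and its cells were also the shallowest of that class, at a median of 1696 UMIs.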

How the results depend on the processing

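No result changed direction past the threshold. Depth and the number of genes required moved the shares most. With 2 or more genes, shares were 7.09% in T lymphocyte-like, 6.53% in macrophage- and monocyte-like, 3.10% in endothelial-like, 2.48% in proximal tubule-like, 1.81% in thick ascending limb-like and 0.909% in neutrophil-like cells, and with all UMIs they were 20.7%, 25.7%, 13.3%, 8.01%, 12.2% and 3.54%. At 2000 UMIs, T lymphocyte-like cells had 5.86%, macrophage- and monocyte-like 5.32%, endothelial-like 1.39% and proximal tubule-like 0.647%. With 5 or more genes, T lymphocyte-like cells had 1.11%, macrophage- and monocyte-like 1.39%, endothelial-like 0.121% and proximal tubule-like 0.0961%, and with 3 or more G2 and mitosis genes 0.921%, 1.56%, 0.129% and 0.0961%. Without Ccnd1 and Stmn1, macrophage- and monocyte-like cells had 2.08%, endothelial-like 0.137% and proximal tubule-like 0.132%. With the highest doublet scores left out, macrophage- and monocyte-like cells had 1.53% and thick ascending limb-like 0.181%, and with mitochondrial shares under 20% the latter had 0.620%. The 1.53% includes the Il27-led cluster, which was named macrophage- and monocyte-like in that setting and is unnamed in the main one. Leaving out 1 mouse, the shares ranged from 2.09% to 2.67% (T lymphocyte-like), 0.843% to 3.20% (macrophage- and monocyte-like), 0.0631% to 0.456% (neutrophil-like), 0.188% to 0.394% (endothelial-like), 0.190% to 0.350% (proximal tubule-like) and 0 to 0.541% (thick ascending limb-like).

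The classes come from the same mice. Without this replicate block, genes called were 2182 in place of 4483 for proximal tubule against thick ascending limb, 4221 of 6720 for macrophages against neutrophils, 2397 of 4493 for T lymphocytes against macrophages, 2055 of 3999 for endothelium against fibroblasts, and 1192 of 3296 for the capsule epithelium-like cluster. Within classes they were 81 in place of 881 in macrophages and 93 in place of 640 in T lymphocytes. Thinned counts gave 1879, 4222, 2761, 2226 and 850 for the 5 class comparisons, in which fewer genes passed the filter. Leaving out 1 mouse gave 3344 to 5384, 4356 to 8353, 2983 to 5436, 2431 to 4526 and 2175 to 3129 calls, and 367 to 763 and 200 to 529 within classes. Counts over 1.5 times below the full ones came without mouse 2 (4356, 2983 and 2431), mouse 1 (2175), mouse 3 (367) and mouse 4 (200). Within macrophages, DESeq2 called 538 genes and the fit with no filter 1542; the cause was not tested. Of the 36 genes, 9 of 36 passed for T lymphocytes against macrophages with no filter on low counts, where 4 did, and 7 of 14 for endothelium with the highest doublet scores left out, where 3 of 21 did. The shares of all genes that passed under these settings are not given. The comparisons planned within endothelial-like and proximal tubule-like cells could not be run, with too few cells in 3 mice.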
